A study of Mus musculus with 6 samples.

Results

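The genes described here make or restrain thrombin at the cell surface and turn plasminogen into plasmin. They were chosen by name, and each was read from the probe sets that the platform's annotation gives to that symbol alone. All 10 of the 10 named genes were measured, by 18 of 45037 probe sets, among 18193 genes with such a probe set. Each gene was represented by its brightest probe set, taken by mean over the 6 arrays, and the 8 other probe sets served as a check. RNA came from AC29 and AB1, a pair of mouse malignant mesothelioma lines, each line being 1 established tumour line and so 1 genetic background. The AC29 group held 3 flasks of a CBA line at passage 60, and the AB1 group held 3 flasks of a BALB/c line at passage 40. The mice are labelled female and aged 6 to 8 weeks, and both lines were grown in RPMI medium with 5% foetal calf serum to 80% confluency, with no treatment. Each flask gave 1 array. Line, strain and passage coincide and cannot be told apart. Each p-value weighs the difference between the lines only against the spread among flasks of the same line.

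Clotting starts when tissue factor, the product of F3, binds factor VII on a cell surface, and the Kunitz inhibitor encoded by Tfpi shuts that complex down. Thrombin bound to thrombomodulin (Thbd) stops cleaving fibrinogen and activates protein C instead, a step helped by the endothelial protein C receptor (Procr), while thrombin also signals into cells by cutting the receptor encoded by F2r. On the other side, urokinase (Plau) on its receptor (Plaur) and tissue plasminogen activator (Plat) cut plasminogen to plasmin, and annexin A2 (Anxa2) with its partner S100a10 holds plasminogen and its activator at the membrane. Normal mesothelium is known for carrying thrombomodulin and for clearing fibrin from the body cavities.

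The deposited values were log2 intensities made by RMA, a method that corrects background, normalizes arrays and summarises the probes of a set. RMA pulls dim probe sets together, so differences of low genes are understated. A floor of 6.07 was set as the 95th percentile of 86 probe sets for olfactory, vomeronasal and taste receptors. Where no array of a line exceeded the floor, a fold is given as a lower bound against it. Differences are AC29 minus AB1. The call rule asked for a difference of at least 2-fold together with an adjusted p below 0.05 in limma (Benjamini-Hochberg over all 18193 genes). The medians of the arrays lay between 5.76 and 5.81, and r across genes was 0.995 to 0.997 within AC29, 0.997 to 0.998 within AB1 and 0.937 to 0.938 between the lines. AC29 replicate 14 stood apart from the other arrays on the second principal component, which held 2.86% of the variance. No member's call changed without it. Of 12 mesothelial markers, 10 were higher in AC29 and 7 were not above the floor on any AB1 array, while Msln, Krt18, Pdpn and Calb2 exceeded it on every array of both lines. Of 10 endothelial markers, 8 were at or under the floor on all 6 arrays, Pecam1, Cdh5 and Vwf among them. The other 2 were Kdr, just above it on every array, and Esam, which was called higher in AC29 (10.59 ± 0.31 in AC29 and 6.17 ± 0.14 in AB1, SD, n = 3, with 2 AB1 arrays above the floor; limma adjusted p = 3.06e-08). Summed over the list, log2 values ran from 53.9 to 54.5 in AC29 and from 50.3 to 51.2 in AB1. Its median difference was -0.04, and Esam was the only gene of the list called. Of 8 macrophage markers, 4 were at or under the floor on all arrays, Ptprc, Adgre1 and Itgam among them. Csf1r was above it on every array, Cd68 only in AB1 and Lyz2 only in AC29, and Cd14 was called higher in AB1 (7.26 ± 0.07 in AC29 and 9.02 ± 0.08 in AB1, SD, n = 3; limma adjusted p = 3.14e-07). Their log2 values summed to between 42.7 and 43.3 in AC29 and between 45.0 and 45.4 in AB1. Their median difference was -0.08, and Cd14 was the only gene of the list called. Fibroblast markers numbered 7, with 2 called higher in AC29 and 1 higher in AB1. The part of endothelial, macrophage or fibroblast cells in the differences below was not tested.

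Promoter sequences were at hand for 7 of the 10 genes, as 300-base windows at 10 start sites, 250 bases before to 50 bases after each start (RefSeq, mouse build GRCm38.p6, strain C57BL/6J and so neither line's own strain). No window was given for Thbd, Plau or Plat. The AP-1 motif TGACTCA, searched on both strands (TGAGTCA is its reverse complement), was in the windows of 5 of these 7 genes, at 5 of 10 start sites. Of all 32851 promoter windows of this length, 5.2% hold it. The 5 matches are shown with 10 bases on each side, in the direction of transcription and with the motif in capitals. Of 5 motifs searched, AP-1 was picked for display because of these counts, which are a description. Whether these genes hold it more often than other genes was not tested.
F3: gaatcacggtTGAGTCAcccctttcgg
Procr: cccaccccccTGACTCAgcggcgacct
Plaur: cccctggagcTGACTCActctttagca
F2r: cccgaggggcTGAGTCActcccaggct
Anxa2: ccaagttggaTGAGTCAcccagcaggg

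The matches lay 135 bases before the start in F3 (chr3:121723392-121723418, plus strand), 154 in Procr (chr2:155751053-155751079, plus strand), 69 in Plaur (chr7:24462404-24462430, plus strand), 204 in F2r (chr13:95618654-95618680, minus strand) and 95 in Anxa2 (chr9:69453578-69453604, plus strand). Between the lines F3 was called toward AC29 and Plaur toward AB1. Procr, F2r and Anxa2 were not called, with small differences toward AC29. The part of AP-1 in these differences was not tested. The other motifs searched on both strands were GGGCGG, bound by Sp1 and found for 6 of the 7 genes (35.7% of all windows), CCACCC, bound by Klf factors and found for 5 (31.5%), TATAAA, the TATA box, found for 3 (13.6%), and GGAATG, bound by TEAD factors and found for 0 (14.7%). A match describes letters in a window, not binding by a factor.

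The 2 windows below belong to F3 and Plaur, the called genes that were above the floor in both lines, and carry every match of the 5 motifs in capitals. F3 is at chr3:121723287-121723586 and Plaur at chr7:24462233-24462532, both on the plus strand of GRCm38.p6.
F3: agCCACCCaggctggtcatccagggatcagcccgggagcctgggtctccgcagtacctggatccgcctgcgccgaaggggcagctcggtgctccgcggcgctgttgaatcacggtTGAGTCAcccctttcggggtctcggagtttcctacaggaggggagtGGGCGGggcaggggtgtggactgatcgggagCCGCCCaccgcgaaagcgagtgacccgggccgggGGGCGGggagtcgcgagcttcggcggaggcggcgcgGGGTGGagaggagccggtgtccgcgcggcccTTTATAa
Plaur: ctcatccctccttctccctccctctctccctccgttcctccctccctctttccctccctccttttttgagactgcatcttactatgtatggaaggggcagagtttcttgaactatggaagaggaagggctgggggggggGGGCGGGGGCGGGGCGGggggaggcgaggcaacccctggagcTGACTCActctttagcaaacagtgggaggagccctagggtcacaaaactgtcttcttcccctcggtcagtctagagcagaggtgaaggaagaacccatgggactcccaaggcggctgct

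In F3 the match to AP-1 is followed by 3 of Sp1, and a TATA box sequence on the opposite strand lies after the start rather than before it. In Plaur 3 matches of Sp1 lie in a run of G and C just ahead of the match to AP-1.

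Of the 10 genes, 3 were higher in AB1, namely Thbd, Plaur and Plau, 1 was higher in AC29, namely F3, and 6 were not called. Over all genes 10.9% were called, 5.82% toward AB1 and 5.12% toward AC29, and the list of 10 was put together with earlier results of the same data known. For 9 of the 10 genes the lines did not overlap on any array, against 50.1% of all genes. The median difference of the members was 0.20 on the log2 scale, against 0.00 over all genes (-0.00474). The median was positive because 7 of the 10 members were on the AC29 side of 0, most by small amounts.

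**Figure D1:**
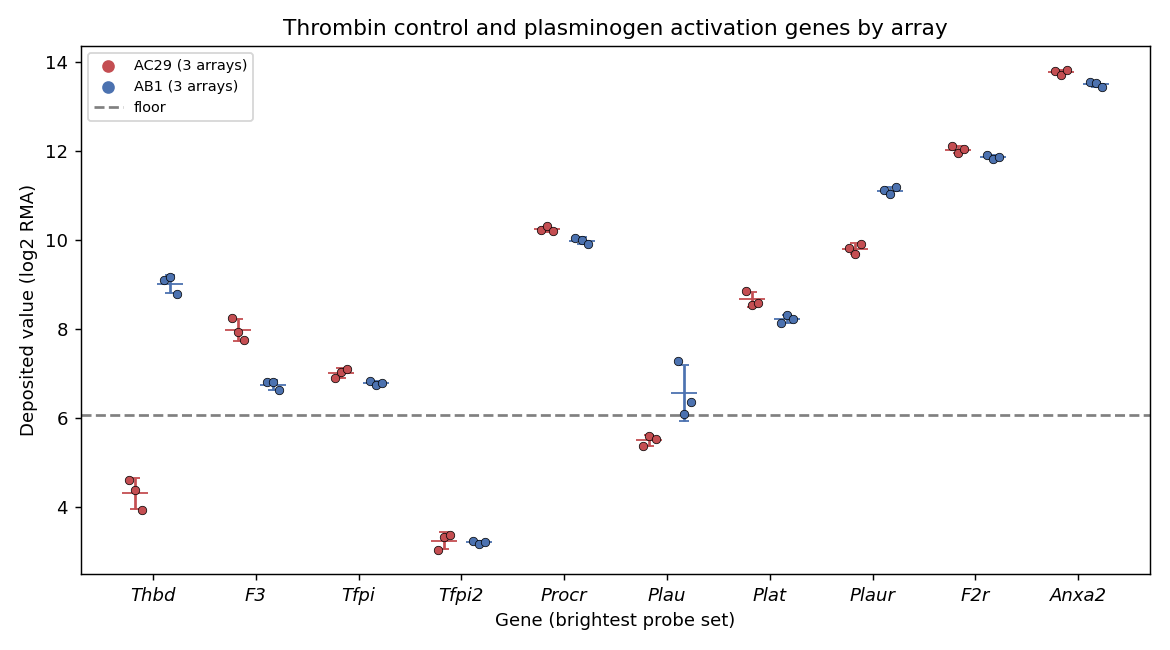
Deposited log2 values of the 10 genes (vertical axis) by gene (horizontal axis), with 1 point per array, AC29 at the left of each pair and AB1 at the right; bars are the mean ± SD of 3 arrays and the dashed line is the floor of 6.07. Thbd, Plaur and Plau lie higher in AB1 and F3 higher in AC29, and Tfpi2 lies under the floor on every array.

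Tissue factor was the 1 member that was higher in AC29. F3 read 8.24, 7.93 and 7.75 in AC29 flasks, against 6.82, 6.80 and 6.62 in AB1 flasks. The lowest AC29 array lay above the highest AB1 array, and all 6 were above the floor, AB1 by less than 1 log2 unit. With the floor at the 99th percentile (7.23) no AB1 array would exceed it, and the fold of F3 would be only a lower bound. The difference was 1.23 ± 0.13 (SE, n = 3 per line), or 2.34-fold, with an adjusted p of 5.78e-05 in limma. The 95% interval, 0.93 to 1.52, includes differences under the 2-fold minimum, and F3 was not called when limma's treat tested against a 2-fold difference (adjusted p = 0.692). The gene had no other probe set to check it against.

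The inhibitors of tissue factor were not called. Tfpi, whose product blocks the complex of tissue factor and factor VII, read 6.89, 7.03 and 7.10 in AC29 flasks, against 6.83, 6.74 and 6.79 in AB1 flasks. The arrays did not overlap, but the gap was small: the difference was 0.22 with a 95% interval of 0.02 to 0.42 (limma adjusted p = 0.0770), which lies wholly under the minimum of 1. Its 3 other probe sets were not above the floor on any array. Tfpi2, a related inhibitor of plasmin and other serine proteases, read 3.04, 3.33 and 3.38 in AC29 flasks, against 3.24, 3.18 and 3.21 in AB1 flasks. The arrays overlapped and none came near the floor, so no Tfpi2 signal was measured in either line and no fold is given.

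Thrombomodulin signal was above the floor in AB1 alone. Thbd read 4.60, 4.40 and 3.93 in AC29 flasks, against 9.10, 9.17 and 8.78 in AB1 flasks. No AC29 array was above the floor, and every AB1 array was above it by more than 2 log2 units. Signal was at least 7.69-fold higher in AB1 (limma adjusted p = 4.47e-08), a bound that exceeds the fold of every member above the floor in both lines. No exact difference is given, since the AC29 values lie under the floor. The lower bound moves with the floor: it was 10.1-fold with the floor at the 90th percentile and 3.45-fold at the 99th. Thbd had a single probe set. The measured genes on either side of it on the chromosome, Sstr4 and Cd93, had no array above the floor and were not called. Cd93 is an endothelial and myeloid surface receptor.

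The companions of thrombomodulin in handling thrombin differed by less than 2-fold. Procr, the receptor that presents protein C to the complex of thrombin and thrombomodulin, read 10.21, 10.30 and 10.21 in AC29 flasks, against 10.05, 10.01 and 9.90 in AB1 flasks. All AC29 arrays were above all AB1 arrays, and the means differed by 0.26 ± 0.08 on the log2 scale (SE, n = 3 per line; limma adjusted p = 0.0380), with a 95% interval of 0.07 to 0.45. It passed the p threshold but not the 2-fold minimum, and its adjusted p lay between 0.0619 and 0.138 when any 1 array was left out. F2r, which encodes the thrombin receptor PAR1, read 12.10, 11.95 and 12.03 in AC29 flasks, against 11.90, 11.81 and 11.85 in AB1 flasks. Its difference of 0.17 (95% interval -0.02 to 0.36) was not called (limma adjusted p = 0.145), and its other probe set gave 0.21 (0.01 to 0.41). The probe sets used for Procr and F2r carry the suffix _s_at, which marks probes that can match more than 1 transcript.

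Urokinase was near or under the floor on most arrays, and the 2-fold call of its brightest probe set rested on 1 flask. By its brightest probe set Plau read 5.37, 5.60 and 5.53 in AC29 flasks, against 7.28, 6.08 and 6.35 in AB1 flasks. AB1 replicate 4 was high and the other AB1 arrays lay just over the floor, while no AC29 array exceeded it. Signal was at least 1.41-fold higher in AB1. The call itself used the fitted difference of -1.07 ± 0.26 (SE, n = 3 per line; limma adjusted p = 0.00878), whose AC29 side lies under the floor. Without AB1 replicate 4 it was -0.72, under the 2-fold minimum but past the p threshold (limma adjusted p = 0.00254). With no moderation of the spread, on all 6 arrays, the adjusted p was 0.106. With the floor at the 99th percentile 1 AB1 array exceeded it and no fold can be given. A further Plau probe set read 3.94, 3.77 and 3.74 in AC29 flasks, against 7.0, 5.56 and 6.16 in AB1 flasks. It ordered the AB1 flasks the same way and passed the call rule at a fitted difference of -2.42 (limma adjusted p = 0.000185 over all probe sets). No AC29 array and only 2 of the 3 AB1 arrays were above the floor, so that the difference is bounded only at 1.12-fold or more. AB1 flasks differed among themselves more for Plau (SD 0.63) than for any other member in either line, the next being Thbd in AC29 (SD 0.34).

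The urokinase receptor differed more evenly. Plaur, which holds urokinase at the cell surface, read 9.83, 9.67 and 9.90 in AC29 flasks, against 11.11, 11.03 and 11.18 in AB1 flasks. All 6 arrays were far above the floor and the lines did not overlap. The difference was -1.30 ± 0.09 (SE, n = 3 per line; limma adjusted p = 3.95e-06), 2.47-fold higher in AB1, with a 95% interval of -1.51 to -1.09. Leaving out any 1 array kept it between -1.35 and -1.24, whereas treat against a 2-fold difference gave an adjusted p of 0.0687. Plaur had no other probe set.

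The other activator and the plasminogen docking protein differed by less than 2-fold, both toward AC29. Plat, which encodes tissue plasminogen activator, read 8.86, 8.53 and 8.59 in AC29 flasks, against 8.13, 8.30 and 8.22 in AB1 flasks. The arrays did not overlap, and the difference of 0.44 (95% interval 0.20 to 0.69; limma adjusted p = 0.00872) was under the 2-fold minimum. Anxa2 read 13.78, 13.71 and 13.80 in AC29 flasks, against 13.53, 13.51 and 13.43 in AB1 flasks, among the brightest values of the table, where RMA values flatten. Its difference was 0.27 (0.09 to 0.45; limma adjusted p = 0.0250), and that of its other probe set above the floor was 0.08 (-0.11 to 0.27). Leaving out any 1 array gave Anxa2 an adjusted p between 0.0224 and 0.0935 in limma. On the mean of its probe sets the difference was 0.04 (limma adjusted p = 0.686). With no moderation of the spread Plat had an adjusted p of 0.0513. Plat, Anxa2 and Procr met the p threshold without the 2-fold minimum. With them and the 4 called genes, 7 of the 10 members met that threshold, as did 39.1% of all genes.

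**Figure D2:**
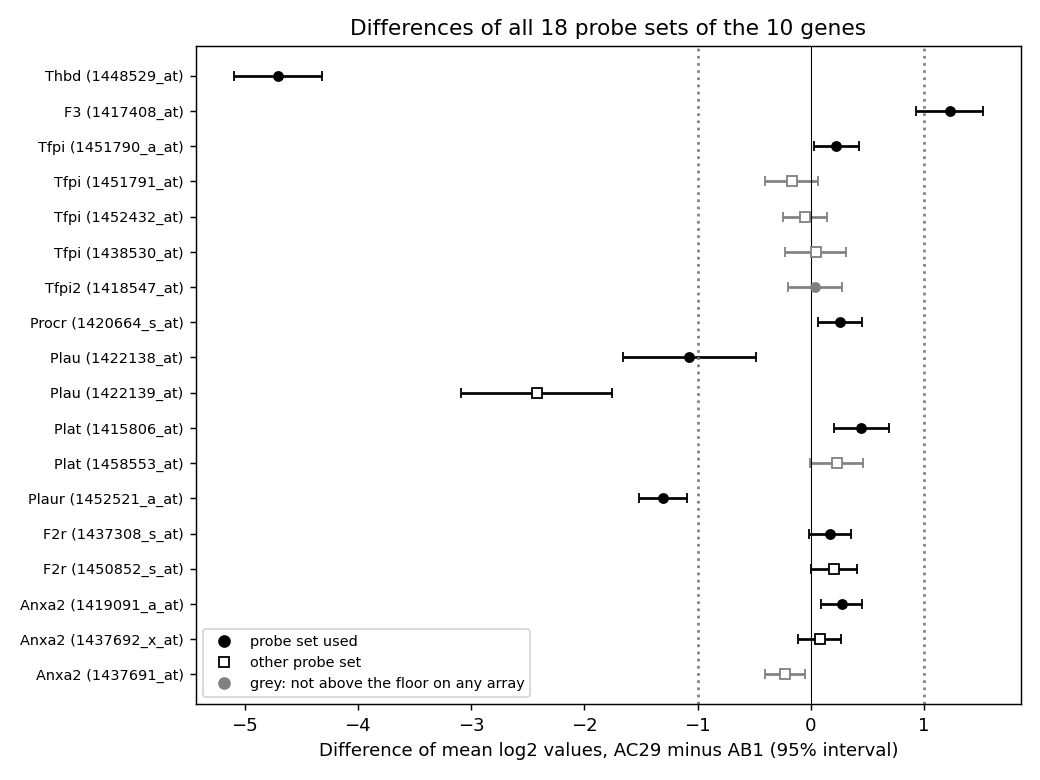
Difference of mean log2 values, AC29 minus AB1 (horizontal axis), for the 18 probe sets of the 10 genes (vertical axis); bars are 95% intervals from limma, filled circles the probe sets used, open squares the others, grey those not above the floor on any array, and dotted lines the 2-fold minimum. The interval of Thbd lies farthest from 0, Plaur lies wholly past the minimum, and those of F3 and the brightest Plau probe set cross it; Thbd and both Plau probe sets are drawn at fitted differences whose AC29 side lies under the floor.

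Set side by side, urokinase and its receptor were both called toward AB1, while tissue plasminogen activator was not called. Among the genes that set the activity of thrombin, the initiator F3 and the brake Thbd were called in opposite directions, AC29 carrying more F3 signal and no Thbd signal above the floor. Among all genes Plaur and F3, both above the floor in each line, lay at the edge of the bulk: their differences exceeded in size those of 92.4% and 91.8% of genes. Thbd and Plau are given no such place, since their AC29 values lie under the floor.

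**Figure D3:**
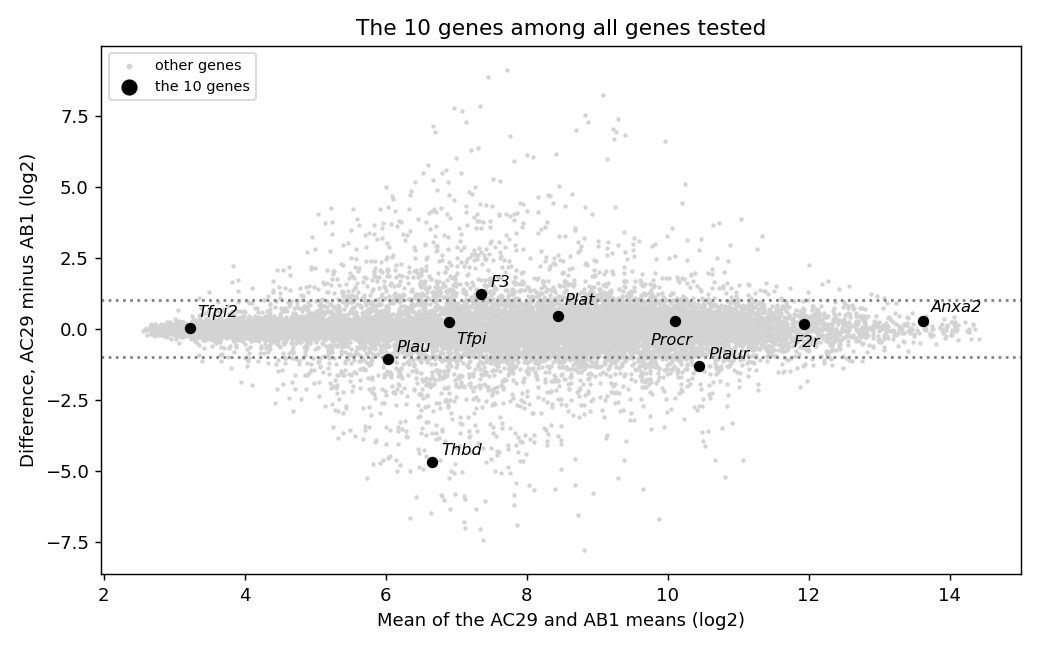
Difference AC29 minus AB1 (vertical axis, log2) against the mean of the AC29 and AB1 means (horizontal axis, log2) for 18193 genes in grey and the 10 genes in black; dotted lines mark the 2-fold minimum. F3 lies above the upper line, Thbd, Plaur and Plau below the lower one, and the other 6 genes between them; the AC29 values of Thbd and Plau are under the floor.

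The measured genes directly before and after each member in RefSeq order were 20 distinct genes, of which 1 was called. This was Calcrl, next to Tfpi, which read 4.93 ± 0.21 in AC29 and 6.00 ± 0.10 in AB1 (SD, n = 3), near the floor, and it is named because it was the only one. No neighbour of Thbd, F3, Plau or Plaur was called in limma.

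Other genes of clotting and plasminogen activation were read from 6 lists with 69 genes, of which 62 were measured and the rest were not analysed here. Of the 62, 1 was higher in AC29 and 5 were higher in AB1, with 56 not called; the median difference was -0.02, against 0.00 over all genes, and the called share was close to the 10.9% of all genes. On all 6 arrays 30 of the 62 were at or under the floor. The soluble clotting factors, mostly made by liver, were among these: 16 of 19 genes in the list of coagulation factors and fibrin had no array above it, including F2 (prothrombin), F5, F7, F10 and the fibrinogen chains, as did Plg, which encodes plasminogen itself. Ggcx, the carboxylase that prepares vitamin K-dependent clotting proteins, was the called gene of that list. It read 6.53, 6.46 and 6.69 in AC29 flasks, against 8.20, 8.13 and 8.20 in AB1 flasks, 3.07-fold higher in AB1 (limma adjusted p = 7.92e-07). Its other probe set had no array above the floor, and on the mean of both the difference was -0.75, under the 2-fold minimum.

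Of 8 natural anticoagulants limma called 0, with 2 past an unadjusted p of 0.05. Pros1, the cofactor of activated protein C, read 6.30, 6.05 and 6.39 in AC29 flasks, against 7.03, 7.21 and 6.97 in AB1 flasks. The lines did not overlap, and the difference of -0.82 ± 0.11 (SE, limma adjusted p = 0.000319) stayed under the 2-fold minimum. Pros1 was near the floor in AC29, where only 2 of the 3 arrays were above it. Protein C itself (Proc) was at or under the floor on all arrays. Of the other thrombin-type receptors F2rl2 and F2rl3 were measured and neither was above the floor.

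A pair of endocytic receptors that take up complexes of urokinase or tissue plasminogen activator with their inhibitors went in opposite directions. Lrp1 read 8.52, 8.47 and 8.81 in AC29 flasks, against 9.96, 10.41 and 10.24 in AB1 flasks, 3.04-fold higher in AB1 (difference -1.61 ± 0.13, SE; limma adjusted p = 1.20e-05). Lrp2, or megalin, read 8.93, 9.27 and 8.81 in AC29 flasks, against 4.02, 3.61 and 3.90 in AB1 flasks. No AB1 array exceeded the floor for Lrp2, which was at least 7.64-fold higher in AC29 (limma adjusted p = 9.00e-09). These were the 2 called genes among 14 measured for plasminogen, its receptors and the clearance of urokinase.

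S100a10, the partner of annexin A2, was higher on every AC29 array but not past the 2-fold minimum. It read 12.72, 13.38 and 12.75 in AC29 flasks, against 12.14, 12.01 and 12.12 in AB1 flasks. AC29 replicate 14, the array that stood apart, was the high one. The difference was 0.86 ± 0.17 (SE; limma adjusted p = 0.00258) and ranged from 0.64 to 0.97 over the fits that left out 1 array, the lowest being that without AC29 replicate 14. None of the 6 measured protease inhibitors of the fibrinolysis list was called by limma, with 1 at an unadjusted p under 0.05.

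Among 13 transcription factors tied to these genes, 3 were called, all higher in AB1, against 10.9% of all genes called and 5.82% called toward AB1. Egr1, an immediate early factor, read 6.58, 6.19 and 6.4 in AC29 flasks, against 11.14, 11.05 and 10.73 in AB1 flasks, a 23.9-fold difference (limma adjusted p = 1.31e-08). Jun, a subunit of AP-1, read 8.69, 8.51 and 8.71 in AC29 flasks, against 10.91, 10.85 and 10.87 in AB1 flasks, 4.71-fold higher in AB1 (limma adjusted p = 6.65e-08). Fosl1, a further AP-1 subunit, read 9.37, 9.48 and 9.46 in AC29 flasks, against 10.97, 10.91 and 11.02 in AB1 flasks, 2.89-fold higher in AB1 (limma adjusted p = 5.56e-07). The other AP-1 subunits of the list were not called and did not follow Jun and Fosl1: Jund averaged 11.09 ± 0.17 in AC29 and 10.61 ± 0.07 in AB1 (SD, n = 3; limma adjusted p = 0.00482), Fos averaged 7.13 ± 0.22 in AC29 and 6.72 ± 0.17 in AB1 (limma adjusted p = 0.0360), and Junb averaged 8.89 ± 0.23 in AC29 and 8.95 ± 0.13 in AB1 (limma adjusted p = 0.782). Klf2 and Klf4, known in endothelium as activators of Thbd, were not called: Klf2 averaged 8.27 ± 0.14 in AC29 and 8.26 ± 0.11 in AB1, and Klf4 averaged 11.46 ± 0.18 in AC29 and 11.68 ± 0.08 in AB1 (SD, n = 3). Klf6, also on the list, was not called but averaged 9.95 ± 0.25 in AC29 and 10.72 ± 0.13 in AB1 (SD, n = 3, limma adjusted p = 0.00128). The part of any Klf factor in the Thbd difference was not tested. The values of the Klf genes and of Jund, Fos and Junb were picked for mention after they were seen.

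**Figure D4:**
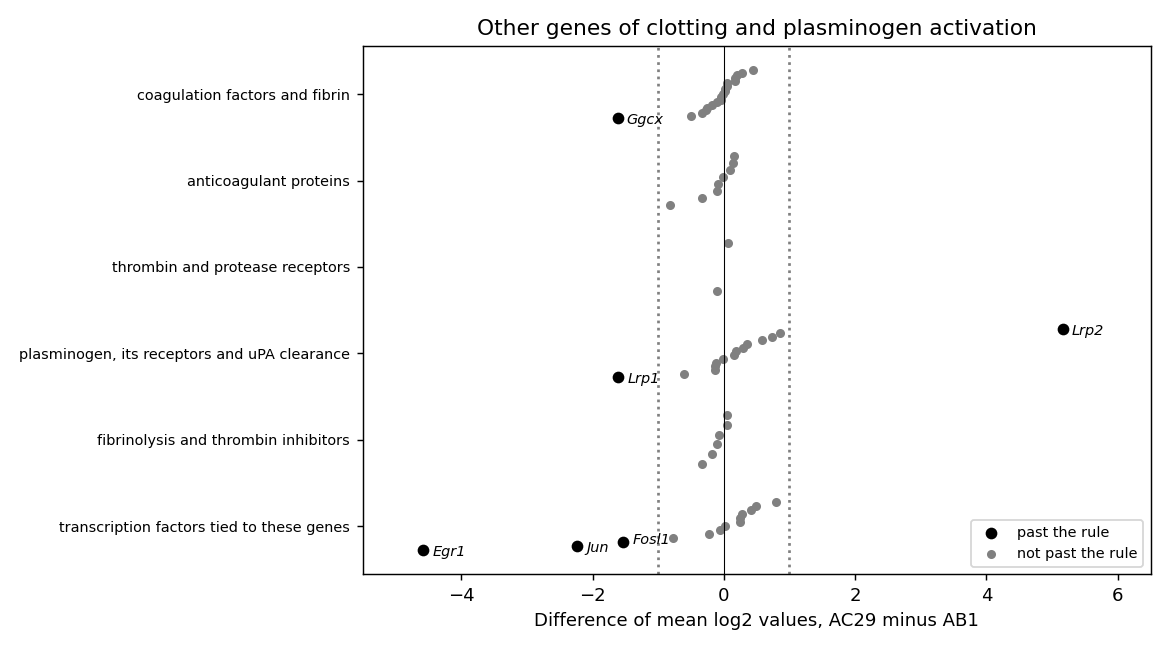
Difference of mean log2 values, AC29 minus AB1 (horizontal axis), for the measured genes of 6 lists (vertical axis, 1 point per gene, spread by rank within a list); black points passed the call rule and dotted lines mark the 2-fold minimum. Among the black points Lrp2 lies alone toward AC29, and Egr1, Jun, Fosl1, Ggcx and Lrp1 lie toward AB1. Lrp2 is drawn at a fitted difference whose AB1 side lies under the floor.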

How the data were processed

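Total RNA (5 ug) was taken from 3 AC29 and 3 AB1 flasks and read on 1 Affymetrix 3′ array each, per the labels. As deposited, the table holds 1 log2 value per probe set and array (45101 probe sets, 2.23 to 14.69); RMA, GCOS and Partek 6.4 are listed, without roles, in the submitters' processing notes. The log2 scale was taken from these notes and the range. Probe-level data, detection calls and scan batches were not used here. Leaving out 64 control probe sets, differences between the lines were fitted, with no other term, by lmFit and eBayes of limma 3.58.1 (R 4.3.3, 2-sided), and p-values were adjusted over 18193 genes. Gene names came from the platform annotation: 34945 probe sets had 1 symbol, 932 several and 9160 none. No array repeated another, and each was counted as 1 replicate flask of its line, so that their number limits the precision. The 3 flasks of a line share line and passage and do not stand for further lines.

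The members and lists were chosen with earlier results of these data known. Named are all members, every called gene of the pathway lists and a few fixed companions (here S100a10, Lrp1 and Pros1); exceptions are marked in the text. The fit was tested on simulated data for AC29 against AB1 with 18193 genes and 50 shifted per size: log2 shifts of 1, 1.5, 2 and 4 were called in 42%, 98%, 100% and 100%. Alternatives covered normalization, filters, probe set choice, moderation, weights, thresholds, the floor and single arrays.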

Additional observations from a re-analysis of the deposited data

How the results depend on the processing

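No paired analysis was possible because the lines share no replicate numbers. The 10 members gave 192 further values under the alternatives and single probe sets, of which 175 kept direction and side of the call rule. The directions of Thbd, F3, Plau and Plaur held in every alternative that gave them a value. Among members, 1 was called toward AC29 and 3 toward AB1; treat against a 2-fold difference gave 0 and 1, an adjusted p under 0.01 with at least 4-fold gave 0 and 1, and dropping the minimum fold gave 4 toward AC29. Keeping only genes at or above the median level left 1 toward AB1, since Thbd and Plau were then not tested. Leaving out AB1 replicate 4 gave 2 toward AB1, without Plau. Reversed values were all small and uncalled: Tfpi by other probe sets (-0.168 and -0.0517), Anxa2 by another (-0.23), and Tfpi2 with array weights (-0.0113); with 1 array left out Tfpi2 ran from -0.0298 (without AC29 replicate 15) to 0.144, and was -0.00115 without AC29 replicate 14. Of pathway genes, 1 was called toward AC29 and 5 toward AB1; with no minimum fold 10 and 11, at 4-fold 2 toward AB1, and at or above the median level 0 toward AC29. Over all genes, 932 toward AC29 and 1059 toward AB1 became 565 and 672 with treat, 3475 and 3630 with no minimum fold and 335 and 388 at 4-fold, and 619 toward AC29 at or above the median level. Signals under the floor of 6.07 limit Thbd, Plau and Tfpi2 to bounds or no fold. With the floor at the 99th percentile (7.23), the AB1 values of F3 and all values of Tfpi would lie under it too.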
